A study of Mus musculus with 8 samples.

Results

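The tripartite motif (TRIM) proteins are a large family, most of whose members are ubiquitin ligases, and their genes were located relative to the binding sites of RelA (p65), an activating subunit of NF-kB. Members were all protein-coding genes on mouse chromosomes 1 to 19 whose symbol is Trim followed by a digit, which gave 68 of 20665 protein-coding genes there, on 15 chromosomes. The cells were primary fibroblasts from embryos of C57BL/6 mice, genotype wild-type, which were kept in low serum overnight before chromatin was precipitated with an antibody against p65 and sequenced (ChIP-seq). The groups were cells at 0 h, cells given the inflammatory cytokine TNF at 10 ng/ml for 0.5 h or for 3 h, with 2 libraries each, and 2 input DNA libraries whose labels name TNF but no time. The data were 1 list of 9829 peaks, of which 9688 lay on chromosomes 1 to 19, each given by its mm10 start and end positions without height, score or sample. No value per library could therefore be given, the times and replicates could not be compared, and the depth was unknown. A peak list carries no expression values, so the fibroblast label was not checked against marker genes.

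A TRIM protein is built from a RING finger, which binds the ubiquitin-conjugating enzyme, then B-box zinc fingers and a coiled coil through which the proteins pair, followed by a C-terminal part that selects the target. The family is best known for antiviral defence and for tuning the pathways from RIG-I-like, Toll-like and TNF receptors to NF-kB and interferon, and many of its genes are induced by interferon. Not every member is a RING ligase: the proteins of Trim14, Trim16, Trim29 and Trim44 lack the RING finger. Many genes arose by local duplication, so that neighbours share flanking sequence and can share a peak.

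RelA peaks lay at a minority of Trim genes. Their share was below that of other genes at each window up to 50 kb, with intervals that held the share of other genes. A peak was assigned to a gene when its centre fell inside the gene or within 10 kb of either end. By that measure 12 of 68 Trim genes had a peak (17.6%, Wilson 95% interval 10.4 to 28.4%), against 23.7% of the 20597 other protein-coding genes, a share inside the interval of the Trim genes. A peak centre lay inside 7 Trim genes (10.3%, interval 5.08 to 19.8%), against 15% of other genes. Within 50 kb the count was 29 of 68 (42.6%, interval 31.6 to 54.5%), against 44.3%. With windows of 1, 5 and 20 kb the counts were 7, 9 and 14 genes (10.3, 13.2 and 20.6%), against 17.5, 20.4 and 29.7% of other genes. The median distance from a Trim gene to the nearest peak centre was 69.7 kb (binomial 95% interval of the median 48.4 to 82.4 kb, quartiles 25.7 and 115 kb), beside a median of 65.1 kb for other genes (quartiles 11.9 and 190 kb). None of these shares was tested, and the intervals cover the number of genes only.

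**Figure D1:**
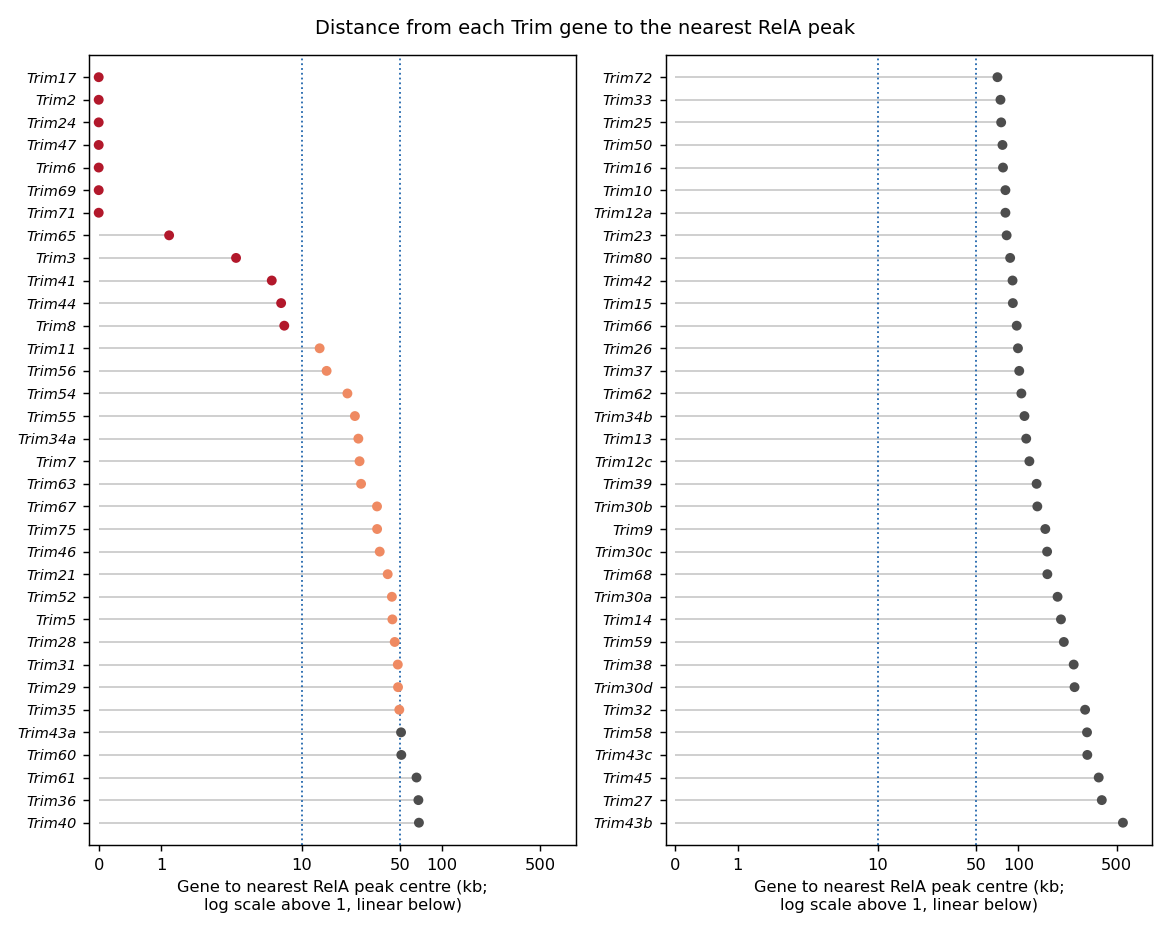
Distance in kb from each of the 68 Trim genes (rows, ordered by distance) to the nearest RelA peak centre, 0 where the centre is inside the gene; the axis is linear below 1 kb and logarithmic above, and the dotted lines mark 10 and 50 kb. Dark red points (12 genes) lie at or within 10 kb, orange points (17 genes) between 10 and 50 kb, and grey points (39 genes) beyond 50 kb.

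The 12 genes each had a single peak in this window. None of the 68 Trim genes had 2 peaks within 10 kb (interval 0 to 5.35%), against 6.77% of other genes, a share outside that interval. At least 2 within 50 kb were found for 7 (10.3%, interval 5.08 to 19.8%) against 19.1%. Neither difference was tested. The 12 peaks were 494 to 1196 bp wide with a median of 719 bp, beside 687 bp over the whole list (quartiles 587 and 816 bp). The Trim gene was the protein-coding gene nearest to the peak centre in 8 of these 12 cases, counting Trim69, whose peak also lay inside the longer overlapping gene Patl2. In the other 4, at Trim65, Trim3, Trim41 and Trim8, another gene was nearer.

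Among the 7 genes with a peak inside, 3 had a peak that overlapped a start window, from 250 bases before to 50 after an annotated start, which held for 3 of the 53 Trim genes with a start in the RefSeq promoter table (5.66%, interval 1.94 to 15.4%) and for 5.79% of other genes. These were Trim2, Trim6 and Trim69. Trim2 (chromosome 3, 84160439 to 84308352) encodes a ligase with C-terminal NHL repeats that acts on neurofilament protein in neurons. Its 627 bp peak (84220669 to 84221295) was centred 0.105 kb from an internal start, 60.5 kb from the nearer gene end, and covered all 250 bases before that start. A further peak of 545 bp lay 22.1 kb upstream of the gene.

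The bases before the start of Trim2 are shown because the peak covered them whole, with the only match found there to the 3 motifs searched, the AP-1 site TGACTCA at position -77, in capitals (RefSeq, GRCm38.p6, chr3:84220878-84221127, minus strand). Positions are counted from the start site, with -1 the base before it, and give the first base of a match in the direction of the gene. AP-1 is the dimer of Fos and Jun proteins.
Trim2: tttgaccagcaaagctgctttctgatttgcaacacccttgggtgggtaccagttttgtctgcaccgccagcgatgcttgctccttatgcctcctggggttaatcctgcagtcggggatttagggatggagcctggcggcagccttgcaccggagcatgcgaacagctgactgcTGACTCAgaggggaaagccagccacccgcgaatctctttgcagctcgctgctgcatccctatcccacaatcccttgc

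Trim6 (chromosome 7, 104218795 to 104235152) encodes a PRY-SPRY ligase that makes unanchored ubiquitin chains which activate the kinase IKK-epsilon in the interferon response. Its 601 bp peak (104218784 to 104219384) began 11 bases before the start site and ran into the gene, with its centre 0.289 kb past the start. Trim69 (chromosome 2, 122160708 to 122179022) encodes a PRY-SPRY ligase known from testis. Its 494 bp peak (122161467 to 122161960) was among the narrowest 7.31% of the list, was centred 0.157 kb from a start site and covered 89 of the 250 bases before it. The upstream bases reached by these peaks are shown with the covered part in capitals and 40 bases before it in lower case (chr7:104218744-104218794 and chr2:122161427-122161555, plus strand). Neither covered stretch held a kappaB, AP-1 or interferon response match. That says only that those letters are not in these windows.
Trim6: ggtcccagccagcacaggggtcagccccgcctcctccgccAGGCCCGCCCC
Trim69: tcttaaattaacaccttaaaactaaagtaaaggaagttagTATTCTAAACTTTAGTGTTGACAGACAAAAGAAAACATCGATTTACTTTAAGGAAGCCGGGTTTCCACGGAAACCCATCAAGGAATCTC

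The other 4 internal peaks did not overlap a listed start window. Trim47 (chromosome 11, 116105750 to 116110235), a short gene for a PRY-SPRY ligase, held an 877 bp peak 1.496 kb from its start (116108301 to 116109177). Trim24 (chromosome 6, 37870811 to 37968445) encodes a bromodomain cofactor of nuclear receptors and held a 697 bp peak 4.30 kb from a start, with a second peak of 518 bp 49.0 kb upstream. Trim71 (chromosome 9, 114511268 to 114564369), the Lin-41 gene of early embryos and stem cells, held a 716 bp peak 22.8 kb from its start. Trim17 (chromosome 11, 58954671 to 58973075), which encodes a ligase linked to neuronal apoptosis, held a 680 bp peak 5.61 kb from the nearer end, and the histone gene H3f4 lay 1.43 kb from the same peak.

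In 5 genes the peak lay in the flank only. Trim65 (chromosome 11, 116124708 to 116131413), whose product activates the RNA sensor MDA5, had a peak centre 1.14 kb away. This peak (116131956 to 116133151) was the widest of the 12 at 1196 bp and lay inside the next gene, Mrpl38, 0.736 kb from its end. Trim3 (chromosome 7), an NHL-repeat ligase gene of neurons, had an 830 bp peak at 3.42 kb, nearer to the haem-binding protein gene Hpx (0.932 kb). Trim41 (chromosome 11) had an 854 bp peak 6.13 kb past its end, which covered the promoter of the ribosomal scaffold gene Rack1, 0.090 kb away. Trim44 (chromosome 2) had a 721 bp peak 7.15 kb upstream of its start with no nearer protein-coding gene. Trim8 (chromosome 19, 46501648 to 46516805) encodes a ligase that puts ubiquitin chains on the kinase TAK1 in TNF and interleukin-1 signalling. Its nearest peak was 1046 bp wide at 7.53 kb, slightly nearer to Arl3 (6.77 kb), and a peak of 1002 bp lay 17.3 kb to the other side, inside Sufu. On the far side of the 10 kb limit the next genes were Trim11 (13.4 kb) and Trim56 (15.1 kb).

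**Figure D2:**
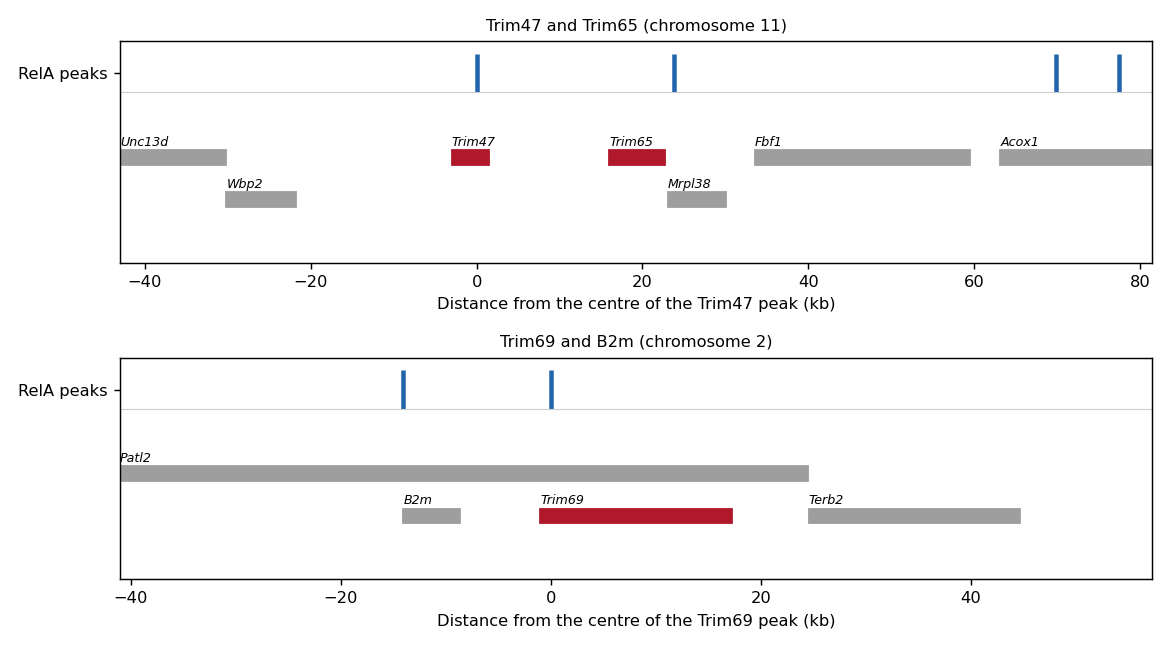
Protein-coding genes (red, Trim; grey, others) and RelA peak centres (blue lines) around Trim47 and Trim65 and around Trim69, with the horizontal axis in kb from the centre of the peak inside Trim47 or Trim69. Trim47 holds its peak and the Trim65 flank peak is inside Mrpl38, and the second peak near Trim69 is at B2m.

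Of the 17 genes first reached between 10 and 50 kb, Trim56 and Trim52 alone were the protein-coding gene nearest to the peak that reached them. Between 10 and 50 kb from a Trim gene and not nearer to another Trim gene than 10 kb there were 20 further peaks, and a Trim gene was the nearest protein-coding gene for 4 of them. Those were the distant peaks of Trim2 and Trim24 above, a 745 bp peak 15.1 kb past the end of Trim56, and an 897 bp peak 43.9 kb past the end of Trim52, where the next other protein-coding gene, Spry2, was 283 kb away. Trim56, which encodes a ligase of the cGAS and STING pathway, had 3 peaks within 50 kb, and the other 2 (429 and 586 bp) lay 44.5 and 45.5 kb away. Trim69 had an 801 bp peak 13.0 kb upstream that covered the promoter of B2m, the gene for the class I light chain. The peak nearest to Trim75 (34.5 kb) covered the promoter of Tmem192, the one nearest to Trim31 (48.4 kb) that of Znrd1, and the one nearest to Trim46 (35.997 kb) lay 1.40 kb from the ephrin gene Efna1. The muscle genes Trim54, Trim55 and Trim63 had peaks at 21.2, 24.0 and 26.5 kb, each nearer to another gene. Trim35 (49.6 kb) was just inside the 50 kb limit and Trim43a (51.1 kb) and Trim60 (51.3 kb) just outside. The farthest were Trim45 (373 kb), Trim27 (392 kb) and Trim43b (555 kb).

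Grouped by the C-terminal domain, peaks within 10 kb lay at 6 of 38 PRY-SPRY genes (15.8%, Wilson 95% interval 7.44 to 30.4%), the class with most antiviral members, namely Trim6, Trim17, Trim41, Trim47, Trim65 and Trim69, and at 3 of 38 with peaks of at least median width only. Of the NHL-repeat genes, 3 of 4 had a peak (Trim2, Trim3 and Trim71, interval 30.1 to 95.4%). Trim32, the remaining one, which encodes a ligase mutated in a limb-girdle muscular dystrophy, was 298 kb from a peak. The PHD-bromodomain class had 1 of 4: Trim24 had its peak inside, while Trim28, the KAP1 corepressor gene, and Trim33 and Trim66 were 46.0, 74.5 and 97.2 kb away. Genes without a further named domain had 2 of 8 (Trim8 and Trim44). Of the 4 genes with a COS box and fibronectin repeat, Trim9, Trim36, Trim46 and Trim67, whose products bind microtubules, none had a peak within 10 kb, and the same held for the 3 muscle COS genes. Trim13, Trim59, Trim23, Trim37, Trim42 and Trim45, in the smallest classes, were 82.4 to 373 kb from a peak. Trim80 stood in no class and was 87.3 kb away. Classes this small leave intervals that hold the share of other genes, 23.7%, except for the NHL class, which was singled out after its count was seen and was not tested. Its genes Trim2 (148 kb) and Trim71 (53.1 kb) are long. Of other genes above 31.8 kb, 39.1% had a peak, a share inside the NHL interval. The Trim3 peak was nearer to Hpx than to Trim3.

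By known role, the list of TRIM proteins that act on components of the NF-kB and TNF pathways had a peak within 10 kb at 1 of 12 genes, Trim8 (8.33%, interval 1.49 to 35.4%), with a median distance of 98.0 kb. Trim5 was 44.3 kb from a peak and Trim21, the gene for the cytosolic antibody receptor, 41.0 kb. Trim25, whose product activates the RNA sensor RIG-I, was 75.4 kb away, and Trim23, whose product modifies the IKK subunit NEMO, 82.4 kb. Trim30a and Trim38, whose products lower the TAK1-binding proteins TAB2 and TAB3, were 190 and 247 kb away, Trim13 114 kb, Trim39 135 kb and Trim59 211 kb. Among genes of innate immunity and viral restriction, 2 of 16 had a peak within 10 kb (Trim6 and Trim65, 12.5%, interval 3.50 to 36.02%). Within 50 kb it was 6 of 16, where other genes had 44.3%. Of these 16 genes, 10 are neighbours in 1 stretch of chromosome 7, described below, that holds a single peak. That peak alone reached 3 of the 6 genes within 50 kb, Trim6, Trim34a and Trim5. The interval treats the 16 genes as independent, which they are not. With each peak given to the nearest gene only, the count of the pathway list was 0 and that of the innate list 1, and with peaks of at least median width only the innate list also had 1. The germ line list had 2 of 10 (Trim69 and Trim71), the brain and cytoskeleton list 2 of 6 (Trim2 and Trim3), the chromatin list 1 of 4 and the muscle list 0 of 4, with 3 of 4 within 50 kb. The interval of each list at 10 kb also held 23.7%. No role list held 20 of the 68 Trim genes, among them Trim17, Trim41, Trim44 and Trim47, which had a peak within 10 kb. Trim5, Trim21, Trim25 and Trim30a stood in both the pathway list and the innate list.

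Proteins that TRIM ligases work with, and proteins of the same family with other symbols, were listed for comparison, with earlier results of these data known. Of the 40 genes of these lists, 19 (47.5%) had a peak within 10 kb, beside 23.7% of protein-coding genes other than Trim genes. These shares were not weighted by gene length. Several listed genes, such as Ube2e2 and Map3k7, are above 31.8 kb, a length group in which 39.1% of non-Trim genes had a peak. No difference was tested. Among signalling substrates and partners the count was 9 of 16 (56.3%, interval 33.2 to 76.9%). For this list 19 symbols were written, of which 16 matched a protein-coding gene on chromosomes 1 to 19. The TAK1 complex genes Map3k7, Tab1 and Tab2, the kinase genes Ikbkb and Tbk1, the ligase gene Traf6 and Ddx58, which encodes RIG-I, each held a peak inside, and Isg15, the gene for a ubiquitin-like modifier, had one at 1.46 kb. Of the ubiquitin-conjugating enzyme genes 6 of 13 had a peak (interval 23.2 to 70.9%): Ube2e2, Ube2e3, Ube2v1 and Ube2w inside, Ube2d3 at 0.144 kb and Ube2l6, which conjugates ISG15, at 8.26 kb. Ube2n, which makes the lysine-63 chains, was 54.2 kb away. Of genes of the same protein family with other symbols 3 of 6 had a peak: Pml (2.76 kb), Mefv, the pyrin gene (5.28 kb), and Rnf207 (9.57 kb). The linear ubiquitin chain complex had 1 of 3 (Rnf31 at 0.444 kb), and neither ubiquitin-activating enzyme gene, Uba6 or Uba7, had one.

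Other symbol families of the ubiquitin system were counted in the same way. Their median gene lengths were 25.5 kb (Rnf), 48.4 kb (Usp) and 24.8 kb (F-box), beside 15.9 kb for Trim genes. The family shares were not weighted by length. Within 10 kb, peaks lay at 30 of 80 Rnf genes (37.5%, interval 27.7 to 48.5%), most of them RING ligases, at 11 of 50 Usp deubiquitinase genes (22%, 12.8 to 35.2%) and at 14 of 78 Fbxo, Fbxl and Fbxw genes of F-box proteins (17.9%, 11.004 to 27.9%), beside 23.7% of all genes without the Trim symbol. The Trim share of 17.6% was close to that of the F-box genes. Its interval (10.4 to 28.4%) held the Usp and F-box shares but not the Rnf share of 37.5%. No difference was tested. At 100 kb the shares were 69.1% of Trim genes (interval 57.4 to 78.8%), 68.8% of Rnf genes, 64% of Usp genes and 52.6% of F-box genes, beside 60.1% of other genes. Neighbouring Trim genes share peaks in this window. On chromosome 17, for instance, 5 adjacent Trim genes were all counted through 1 peak, 48.4 to 99.2 kb away. No share with such neighbours counted once was computed at 100 kb, and the interval treats the genes as independent.

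**Figure D3:**
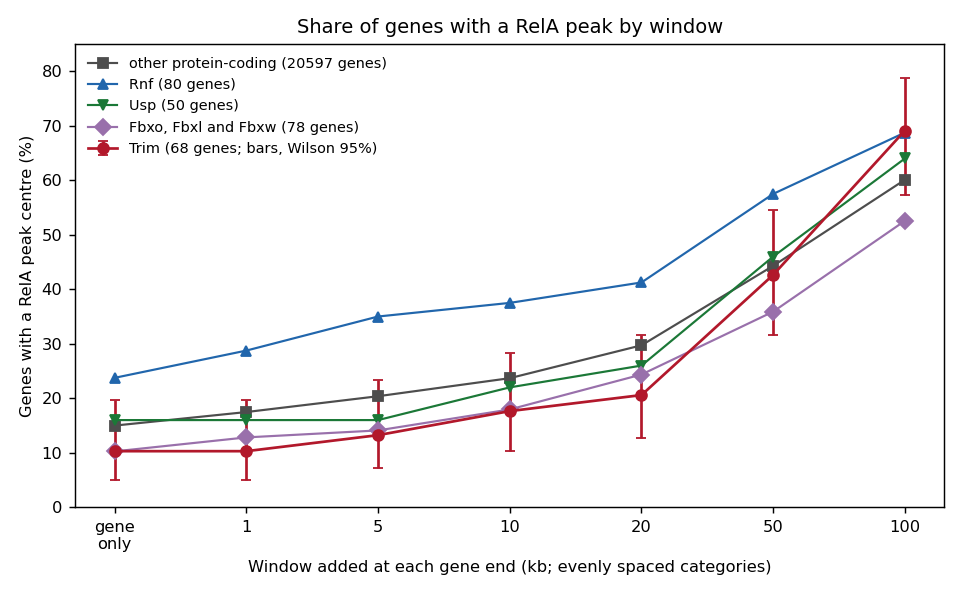
Share of genes (vertical axis, %) with a RelA peak centre inside the gene or within the window added at each end (horizontal axis, kb, evenly spaced categories), for Trim, Rnf, Usp and F-box genes and all other protein-coding genes; bars are Wilson 95% intervals of the Trim share. Trim genes lie below other genes from the gene alone (10.3%) to 50 kb (42.6%) and above them at 100 kb (69.1%).

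Gene length and chromosome were compared because a longer gene offers more sequence. Trim genes had a median length of 15.9 kb and other genes 17.5 kb. All protein-coding genes were split by length into 3 groups of equal size. In the short group (up to 9.09 kb) 2 of 17 Trim genes had a peak within 10 kb (11.8%, other genes 11.6%), in the middle group 6 of 38 (15.8%, other genes 20.4%) and in the long group, above 31.8 kb, 4 of 13 (30.8%, other genes 39.1%). With other genes weighted to the Trim mix of these groups, their share was 21.8%. On chromosome 11, which carries 11 Trim genes, 4 had a peak (36.4%, other genes there 26.0%). On chromosome 7, which carries 16, 2 had one (12.5%, other genes 19.8%), and on the remaining chromosomes 6 of 41 (14.6%, other genes 23.9%).

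Clustered copies were examined as runs of Trim genes no more than 100 kb apart. There were 6 runs with 24 genes in all, of which 5 genes had a peak within 10 kb (20.8%), and 44 single genes, of which 7 had one (15.9%), beside 23.7% of other genes. The run of chromosome 7 holds 10 genes in 289 kb: Trim6, Trim34a, Trim5, Trim12a, Trim34b, Trim12c, Trim30b, Trim30c, Trim30a and Trim30d. Trim5 is the mouse relative of the retroviral restriction factor of primates, and the Trim12 and Trim30 genes are rodent expansions. The only peak in the run was the one at the start of Trim6, at its edge. Trim34a was 25.4 kb and Trim5 44.3 kb from that same peak, Trim12a 80.8 kb, Trim34b 110 kb, Trim12c 120 kb, Trim30b 136 kb, Trim30c 160 kb, Trim30a 190 kb and Trim30d 251 kb.

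The next peak beyond the run was 1257 kb from the Trim6 peak, and the one before it 1702 kb away, where the median spacing of neighbouring peaks was 102 kb. The gap behind Trim6 was longer than 96.9% of the 9669 gaps between peaks, each counted once. This gap was chosen because the run lies in it, and a longer gap can hold more genes. The rank therefore does not say how unusual such a gap is for a gene. The gap held 52 protein-coding genes, 9 of them Trim genes and 35 olfactory receptor genes, a gene family with a peak within 10 kb at 7 of its 1104 members (0.634%).

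**Figure D4:**
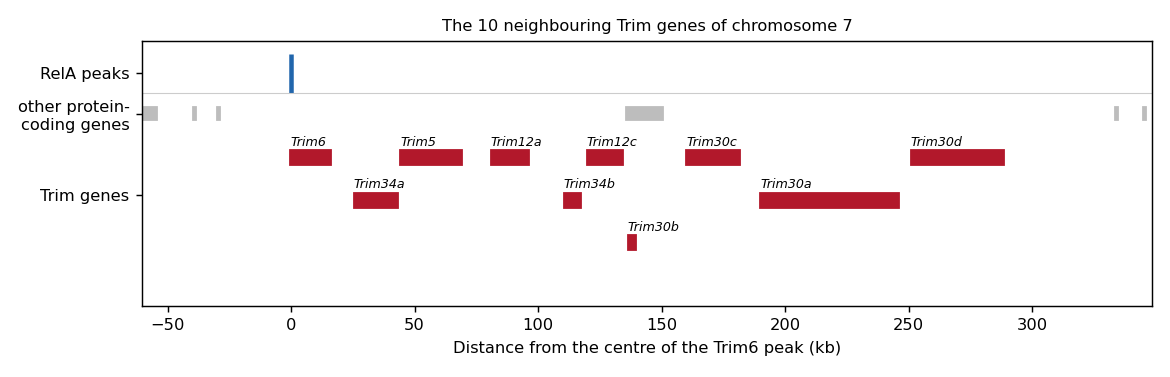
The 10 neighbouring Trim genes of chromosome 7 (red), other protein-coding genes (grey) and RelA peaks (blue), with the horizontal axis in kb from the centre of the Trim6 peak. The single peak lies at the left edge of the run, and Trim30d, at the other edge, begins 251 kb from it.

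The run of chromosome 17, in the class I region, holds Trim26, Trim15, Trim10, Trim40 and Trim31 in 73.1 kb without a peak, at 99.2, 91.3, 80.8, 68.5 and 48.4 kb from the nearest one. The run of chromosome 8 holds Trim75 (34.5 kb) and the overlapping gene models Trim60 and Trim61 (51.3 and 65.8 kb), which share 1 end and 1 promoter window. On chromosome 11 the pairs were Trim41 and Trim7, the latter 25.9 kb from the peak near Trim41, then Trim17 and Trim11, the latter 13.4 kb from the Trim17 peak, and Trim47 and Trim65, the only run in which 2 genes had a peak each within 10 kb. Trim43a, Trim43c and Trim43b on chromosome 9 lie over 100 kb apart and had no peak within 50 kb (51.1, 309 and 555 kb). Of the 45 pairs of start windows in the chromosome 7 run, 4 stood above the rest, with 82.8% identity in a global alignment between Trim5 and Trim12c, 72.9% between Trim12a and Trim12c, 67.1% between Trim5 and Trim12a and 65.8% between Trim30a and Trim30d. The remaining 41 pairs had 44.9 to 55.1% (median 50.1%). Short reads from such copies may not be assignable to 1 gene, and the part of this in the missing peaks was not tested.

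Sequence at the starts was described for the 53 Trim genes, with 67 starts, that matched the RefSeq promoter table (GRCm38.p6, from 250 bases before to 50 bases after a start). Not matched were Trim3, Trim8, Trim11, Trim14, Trim16, Trim17, Trim29, Trim33, Trim35, Trim36, Trim43b, Trim43c, Trim50, Trim55 and Trim65. The 3 motifs were searched on both strands: the 10-base kappaB pattern of NF-kB, AP-1 (TGACTCA or TGAGTCA) and the interferon response element core. The kappaB pattern was GGRRNNYYCC, where R is A or G, Y is C or T and N is any base. It is looser than GGGRNNYYCC, and the counts below hold for the looser pattern. The interferon response core reads GAAA, then 2 bases of any kind, then GAAA, and the IRF factors and the ISGF3 complex bind it. In the Trim windows no match of one motif overlapped a match of another. Overlapping interferon response matches occurred in Trim21 and Trim26.

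A kappaB match lay in 8 of 67 Trim start windows (11.9%, interval 6.18 to 21.8%) and in 12.2% of other windows. The 8 genes were Trim7, Trim13, Trim25, Trim28, Trim43a, Trim46, Trim54 and Trim56, and none of them had a peak within 10 kb (0 of 8, interval 0 to 32.4%). Among other genes, 783 of 2285 with a match had a peak within 10 kb (34.3%), against 21.4% of those without. The difference between Trim and other genes with a match was not tested. Matches in Trim25, Trim28 and Trim56 are shown because these fit the kappaB pattern at starts in this family that no peak reached. Of those shown, only the Trim28 match also fits GGGRNNYYCC. Each is given with 10 bases on either side and the match in capitals (chr11:88999155-88999184, chr11:88999309-88999338 and chr7:13023966-13023995 on the plus strand, chr5:137116291-137116320 on the minus strand).
Trim25, position -238: caggagggtgGGAATATTCCagcccctgcg
Trim25, position -84: gcaccaggagGGAAGCCTCCcgcccactgt
Trim28, position -176: cacgttcggcGGGAACTTCCtggcaaagac
Trim56, position -103: cagaggggagGGAGGGTTCCagggtggagt

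The interferon response core was found in 10 of 67 Trim start windows (14.9%, interval 8.31 to 25.3%) and in 3.34% of other windows. Of these 10 windows, 7 belonged to the chromosome 7 run, which has 11, and 3 to the remaining 56. The genes with a match were Trim34a, Trim5, Trim12a, Trim12c, Trim30a at both starts and Trim30d in the run, and Trim21, Trim26 and Trim2 elsewhere. The windows of Trim5, Trim12a and Trim12c resembled one another (67.1 to 82.8% identity), as did those of Trim30a and Trim30d (65.8%). Matches in these windows are therefore not independent. The Trim34a window had 49.0 to 53.3% identity with those of the other run genes. No kappaB match lay in the windows of the run. AP-1 matches lay in 7 of 67 Trim windows (10.4%, interval 5.15 to 20.03%) and 4.68% of other windows, in Trim2, Trim10, Trim15 at both starts, Trim34b, Trim44 and Trim54. Both Trim15 windows overlap and hold the same site (chr17:36867170-36867176), so they are not independent. By gene, 6 of 53 Trim genes (11.3%) and 5.44% of other genes had a match. Of the 6 genes with an AP-1 match, 2 had a peak within 10 kb (Trim2 and Trim44; 33.3%, interval 9.68 to 70.0%), beside 22.2% of other genes with a match. Of the genes with an interferon response match, only Trim2 had a peak within 10 kb (1 of 9, interval 1.99 to 43.5%), at another start than the match, while 20.4% of other genes with a match had one.

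Matches of the run, 1 for each gene, are shown to let the copies be compared, on the strand that carries the GAAA repeats, with the match in capitals. They are at chr7:104244457-104244486 on the minus strand, and chr7:104288136-104288165, chr7:104315466-104315495, chr7:104353359-104353388, chr7:104465210-104465239 and chr7:104507871-104507900 on the plus strand. Trim21 (chr7:102565450-102565479, minus strand), outside the run, is added for its pair of overlapping matches, of which the first is in capitals. Trim5 and Trim12a had the same 30 bases, as did Trim30d and the Trim30a start shown, while the window at the other Trim30a start, not shown, differed from them outside the match.
Trim34a: gcagagaaaaGAAACTGAAActccaaacca
Trim5: ctctggaaatGAAACAGAAAccacaactct
Trim12a: ctctggaaatGAAACAGAAAccacaactct
Trim12c: agctggaaatGAAACAGAAAccacaactct
Trim30a: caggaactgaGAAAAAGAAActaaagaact
Trim30d: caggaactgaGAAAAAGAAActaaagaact
Trim21: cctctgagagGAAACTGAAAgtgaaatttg

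**Figure D5:**
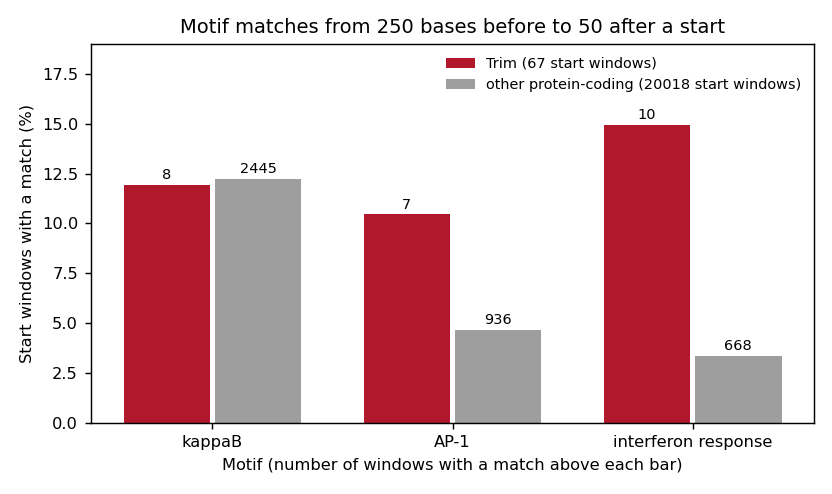
Share of start windows (vertical axis, %) with a kappaB, AP-1 or interferon response match, for 67 Trim windows (red) and 20018 windows of other protein-coding genes (grey), with the number of windows above each bar. kappaB shares are 11.9 and 12.2%, AP-1 shares 10.4 and 4.68%, and interferon response shares 14.9 and 3.34%, the latter largely from the gene run of chromosome 7. The AP-1 share counts the same site in both Trim15 windows.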

How the data were processed

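RelA ChIP-seq and input libraries of mouse embryonic fibroblasts are represented by 1 deposited peak list, in which the authors give a chromosome, start and end per peak and no score. The genome was mm10, and the tools named in the submitters' processing notes are MACS2, Bowtie2 2.3, cutadapt 1.9.1 and Picard 1.13, beside SAMtools and deepTools. How peaks were thresholded, whether input entered and which libraries were pooled is not given in the sources used here.

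Starts were converted to positions counted from 1. Genes came from RefSeq GRCm38.p6, the assembly that mm10 names. 1 Trim pseudogene was left out. Peak centres were assigned to genes with Python 3.11.15 and pandas 2.3.3, and Wilson 95% intervals were computed with SciPy 1.17.1. Promoter windows were aligned with Biopython 1.88. The distance and counting functions were checked on simulated peaks. No test was run, since the list has no replicates.

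The members and the lists of classes, roles and partner proteins, taken from general knowledge, were chosen with earlier results of these data known. Named were every Trim gene with a peak within 10 kb, those within 50 kb, the farthest 3 and clustered copies, and up to 8 genes of each partner list within 10 kb, nearest first. Other genes were named after their values were seen.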

Additional observations from a re-analysis of the deposited data

How the results depend on the processing

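Of 23 alternative settings for the shares, the median distance and the number of peaks, 17 stayed within the interval of the reported value or, for the number of peaks, within 1.5 times of it. The share at 10 kb fell to 10.3% with the gene body only and also with a window of 1 kb (other genes 15.0% and 17.5%). The share at 50 kb was 69.1% with a window of 100 kb, 27.9% with peaks of at least median width only and 14.7% with each peak given to the nearest gene only (other genes 60.1, 29.4 and 22.3%). The median distance was 127 kb with the wider peaks only (other genes 134 kb). Of 15 settings that gave a share for both, Trim genes were above other genes in 1, the 100 kb window, in which neighbouring Trim genes share peaks. At 10 kb, 8 of 68 Trim genes kept a peak with the wider peaks only, 8 with the nearest gene only, and 11 of 50 loci had one with runs counted once. The 8 peaks of at least median width were not at Trim2, Trim6, Trim17 or Trim69. The weighting by length was chosen after seeing the data. No paired analysis was possible because the peak list gives no value per sample. Depth was unknown, so a missing peak does not show that RelA was absent.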
